A study of Oryctolagus cuniculus with 4 samples.

Results

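The genes that make, modify and carry glycosaminoglycans were followed in rabbit ear hypertrophic scar (HS) tissue. By gene symbol, the hyaluronan synthases (HAS) and hyaluronidases (HYAL), the enzymes that make, sulfate and trim chondroitin and heparan sulfate, the syndecans (SDC1 to SDC4), the glypicans (GPC1 to GPC6), CD44 and VCAN were taken from the deposited table, which gave 46 of its 13913 genes. The choice went by symbol and used no cut on measured values, but it was made with earlier results of these data known. HAS1, SDC4, GPC1, GPC6, SULF2, GLCE, HS2ST1, NDST2 and B3GAT3 were not analysed here.

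Glycosaminoglycans are long sugar chains of the skin matrix and the cell surface. Hyaluronan is made at the plasma membrane without a core protein, whereas heparan sulfate and chondroitin sulfate are built in the Golgi on a short linker attached to a serine of a core protein, and are then sulfated. Syndecans (membrane-spanning) and glypicans (lipid-anchored) are the main cell-surface carriers of heparan sulfate, versican (VCAN) is a large matrix proteoglycan that carries chondroitin sulfate and binds hyaluronan, and CD44 is the main hyaluronan receptor. In skin, hyaluronan and proteoglycans hold water, bind growth factors and fill the matrix of healing wounds and scars.

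The libraries were single-cell RNA sequencing libraries made with the 10x Genomics 3′ droplet method from the ventral epidermis and dermis of the ear, each from 1 scar tissue, and the table holds 1 value per gene and library. The rabbits were wild type, and per the study's methods female and 10 to 12 weeks old when bought. The HS group (2 libraries) had scars left without treatment. The drug-loaded MNs group (2 libraries) had scars treated 3 times, once a week, with microneedle patches (MNs) whose crosslinked gelatin tips hold a 5-fluorouracil derivative as a prodrug, separate from the base and remain in the tissue, and the tissues of both groups were taken on day 43 after the skin resection, 1 week after the last patch. Tissue treated with needles without drug was not analysed here, so the drug and the needles cannot be told apart. The study's supplement calls the samples of a group biologically independent, without saying whether they came from different rabbits, so p-values measure the spread between these libraries.

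Values are relative expression, rescaled so that each library sums to 1000000 units over all genes. Changes are log2 fold changes of drug-loaded MNs over HS on the log2(value + 1) scale, fitted with limma over the 9348 genes whose mean reached 1 unit, and adjusted p is the Benjamini-Hochberg value over those genes. Depth was unknown, so no counting error could be given. Keratin and collagen markers of skin were present in every library, with KRT10 between 24607 and 45325 units and COL3A1 between 4657 and 14786. Of the 46 genes, 36 passed the filter on low values. The other 10 lay below a mean of 1 unit. Of these, NDST4 was listed at 0 in all 4 libraries, and CHST1, CHST4, CHST13, HYAL3, HYAL4, HS3ST2, B3GAT2, XYLT1 and GPC5 stayed below 1 unit in each library.

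After adjustment none of the 36 tested genes reached 0.05 in limma, against 0.0428% of all genes tested. The smallest adjusted p was 0.314, for GPC3. GPC3, HAS2 and VCAN, all higher in drug-loaded MNs, were the 3 with an unadjusted p under 0.05. They are 8.33% of the 36, close to the 7.26% of all genes that were higher at this level. None of the 36 was lower at this level, where 1.39% of all genes were, and the background in either direction was 8.65%. These calls depended on the scaling. Median ratio scaling, an alternative to the library total, gave 4 of the 36 at this level (771 of 9341 genes). GPC3 and HAS2 stayed higher, SDC1 and EXT1 were lower, and VCAN did not pass (limma unadjusted p 0.060). GPC3, HAS2 and VCAN were the members with the largest fold changes upward, and the design was coarse: the 95% interval of a member's log2 fold change reached a median of 0.68 on either side.

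Both libraries of drug-loaded MNs lay above both HS libraries in 13 of the 36 genes (36.1%, against 26.6% of all genes) and below both in 4 (11.1%, against 11.2%). Median ratio scaling moved the median log2 fold change of all genes from 0.12 to -0.01. Under it these counts were 7 and 5 of the 36, against 18.4% and 20.6% of all genes. The 7 higher genes were then near the share over all genes, and the 5 lower genes below it. EXT2, EXTL2, CHST10, CHPF2, CHSY1 and XYLT2 then overlapped, and HS3ST1 was apart and lower. The median of the 36 log2 fold changes was 0.22, that is 0.10 above the median of all genes, and it was 0.11 above it under median ratio scaling. This median depended on single libraries, and its side of the background turned on 1 of them. It came to 0.35 when HS replicate 1 was left out, 0.31 above all genes, and to 0.040 when HS replicate 2 was left out, 0.15 below all genes. Without replicate 1 of the treated group it was 0.13, or 0.063 above all genes, and without replicate 2 of that group 0.19, or 0.017 above.

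**Figure D1:**
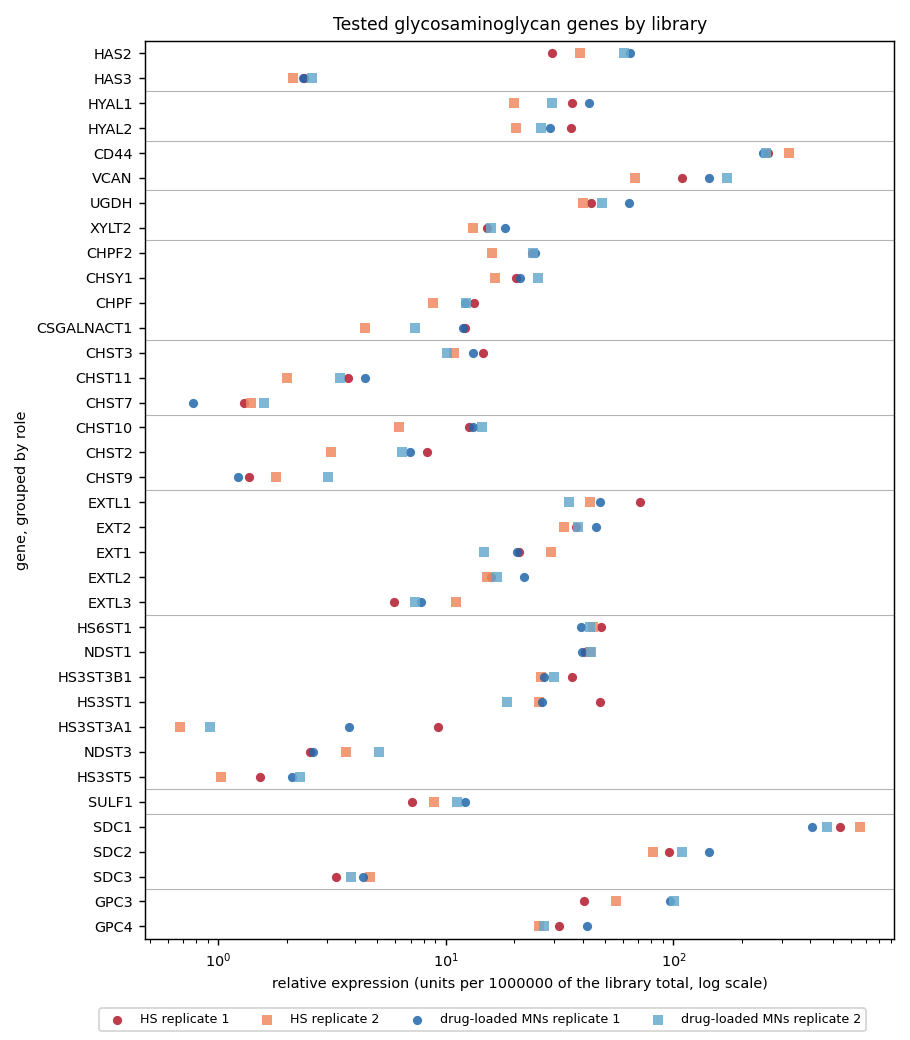
Relative expression of the 36 tested genes in each of the 4 libraries (units per 1000000 of the library total, log axis), with genes grouped by role and groups divided by grey lines. Red and orange points are HS replicates 1 and 2, dark and light blue points drug-loaded MNs replicates 1 and 2. For HAS2, VCAN and GPC3 both blue points lie to the right of both HS points, while for SDC1 both lie to the left.

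Hyaluronan synthesis was described by HAS2 and HAS3. HAS2 (ENSOCUG00000027106), the main hyaluronan synthase of dermal fibroblasts, stood at 29.2 and 39.0 units in HS against 64.3 and 60.6 units in the treated scars. The lower treated library lay well above the higher HS library, and the means differed 1.83 times (34.1 ± 6.93 against 62.5 ± 2.63 units, SD, n = 2 each). On the log2 scale the difference was 0.87 (SE 0.24, 95% interval 0.30 to 1.44, limma adjusted p 0.352). HAS3, the isoform best known from epithelia, was low and overlapped, with 2.39 and 2.13 units in HS against 2.35 and 2.57 in the treated scars. Its log2 fold change of 0.086 became -0.016 under median ratio scaling. Within a library, where scaling cancels, the ratio of HAS2 to HAS3 was 12.3 and 18.3 in HS against 27.4 and 23.6 in the treated scars, so the groups did not overlap in this ratio either.

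The hyaluronidases, which cut hyaluronan, gave no separation. HYAL1, the lysosomal enzyme, stood at 35.9 and 19.9 units in HS against 42.7 and 29.2 in the treated scars (log2 fold change 0.39, limma adjusted p 0.836). HYAL2, a membrane-anchored enzyme that starts the breakdown of long chains, stood at 35.5 and 20.4 units in HS against 28.8 and 26.1 in the treated scars (log2 fold change 0.024, or -0.12 under median ratio scaling). In both genes the HS libraries lay farther apart than the group means did. The ratio of HAS2 to HYAL1 was 0.814 and 1.96 in HS against 1.51 and 2.08 in the treated scars, with overlap. For HAS2 to HYAL2 it was 0.823 and 1.91 in HS against 2.23 and 2.32 in the treated scars, without overlap. HYAL1 and HYAL2 are direct neighbours in the RefSeq gene list of the rabbit, with HYAL3 close by. The interval for HYAL2 ran from -0.70 to 0.75 on the log2 scale, so a change of 1.5 times in either direction lay inside it.

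CD44 (ENSOCUG00000000715) was measured at 260.0 and 321.5 units in HS against 248 and 255 units in the treated scars. The groups did not overlap, but the gap between the nearest libraries was small beside the distance between the HS libraries. The log2 fold change was -0.20 (95% interval -0.71 to 0.31, limma adjusted p 0.870). VCAN (ENSOCUG00000002613) went the other way, with 109 and 67.8 units in HS against 143 and 172 units in the treated scars. Its means differed 1.78 times, and the estimate on the log2 scale was 0.86 (SE 0.28, 95% interval 0.21 to 1.51, limma adjusted p 0.420). The ratio of VCAN to CD44 within a library was 0.418 and 0.211 in HS against 0.578 and 0.672 in the treated scars. HAS2 to CD44 was 0.112 and 0.121 in HS against 0.260 and 0.237 in the treated scars. Both ratios were higher in each treated library than in either HS library, and for HAS2 to CD44 the libraries of a group lay close to each other. Since CD44 was lower and VCAN and HAS2 higher without overlap, both ratios could only come out higher, so they are no separate evidence.

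**Figure D2:**
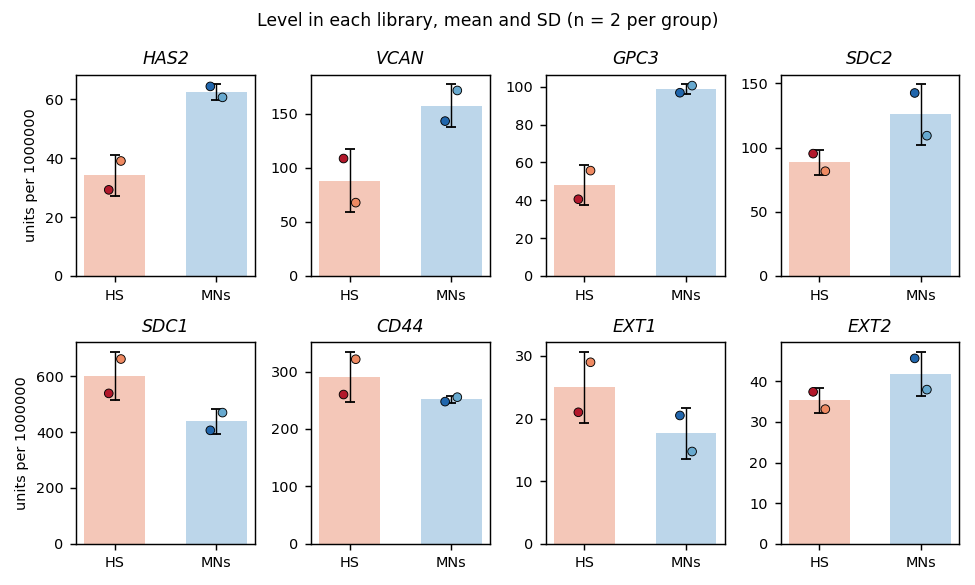
Relative expression of 8 genes (units per 1000000, axes from 0), with points for single libraries, bars for the group mean and error bars for the SD (n = 2 per group). Red and orange points are HS replicates 1 and 2, dark and light blue points drug-loaded MNs replicates 1 and 2. HAS2, VCAN, GPC3, SDC2 and EXT2 are higher in both treated libraries, and SDC1, CD44 and EXT1 are lower, with only a narrow gap for CD44, EXT1 and EXT2.

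The glypicans tested were GPC3 and GPC4. GPC3 (ENSOCUG00000001752), a glypican that restrains hedgehog signalling and limits growth, had the largest log2 fold change among the 36 genes. It stood at 40.5 and 55.7 units in HS against 96.8 and 100.6 units in the treated scars, a ratio of means of 2.05. The log2 fold change was 1.04 (SE 0.24, 95% interval 0.47 to 1.61, limma adjusted p 0.314). Its direct neighbour in the RefSeq gene list, GPC4, did not separate, with 31.4 and 25.7 units in HS against 41.5 and 26.9 in the treated scars (log2 fold change 0.23, limma adjusted p 0.889). The ratio of GPC3 to GPC4 was 1.29 and 2.17 in HS against 2.33 and 3.73 in the treated scars, apart but with the nearest libraries close. GPC5 stayed below 1 unit, at 0.439 and 0.385 units in HS against 0.135 and 0.253 in the treated scars, too low to be tested.

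The syndecans differed in direction. SDC1 (ENSOCUG00000025956), the syndecan of stratified epithelia, stood at 539 and 663 units in HS against 407 and 470.4 units in the treated scars. The groups did not overlap (601 ± 87.1 against 439 ± 44.9 units, SD, n = 2 each), and the log2 fold change was -0.45 (SE 0.23, 95% interval -0.98 to 0.083, limma adjusted p 0.687). Read against the median of all genes (0.12), it lay further below. SDC2 (ENSOCUG00000002662), the syndecan of fibroblasts and other mesenchymal cells, stood at 95.3 and 81.6 units in HS against 143 and 109 units in the treated scars, a difference of 0.50 on the log2 scale (SE 0.24, 95% interval -0.057 to 1.05, limma adjusted p 0.646). The ratio of SDC1 to SDC2 was 5.66 and 8.12 in HS against 2.85 and 4.30 in the treated scars. Scaling of whole libraries leaves this ratio unchanged. With SDC1 lower and SDC2 higher without overlap, it could only be apart, so it is no separate evidence. SDC3, known mainly from nerve and muscle, was low and overlapped, at 3.30 and 4.63 units in HS against 4.32 and 3.81 in the treated scars. Its log2 fold change of 0.040 was -0.074 under median ratio scaling.

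Summed over the 36 genes, expression was 1696 and 1710 units in HS against 1709 and 1695 in the treated scars, so in these units the total was nearly level while its parts were not. The level total holds for the rescaling to the library sum only. Median ratio scaling lowered the median log2 fold change of the 36 genes from 0.22 to 0.099, and the sum was not taken under it. SDC1 and CD44 together held 47.1% and 57.5% of this sum in HS against 38.3% and 42.8% in the treated scars. HAS2, VCAN, GPC3 and SDC2 held 16.1% and 14.3% in HS and 26.1% in each treated library. These pairings were chosen after the values were seen, and because a correction for gene length was not stated, the shares describe only these units.

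**Figure D3:**
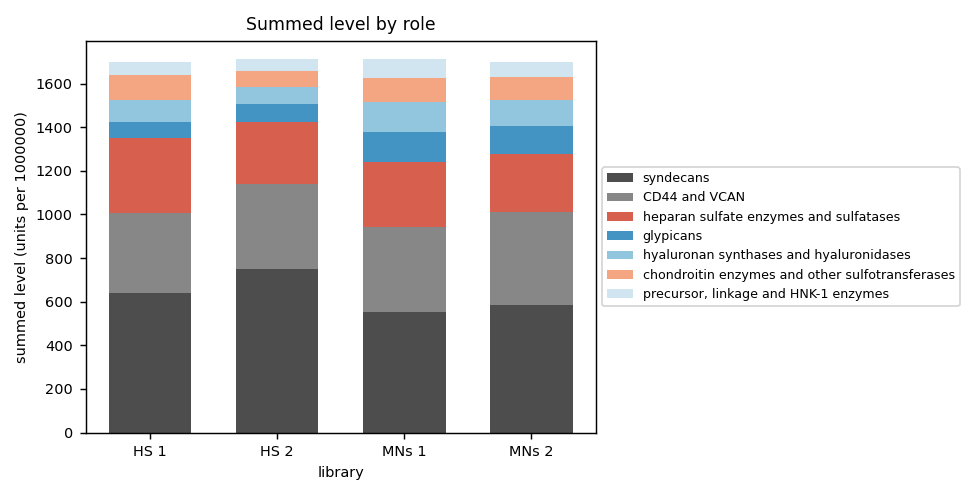
Summed relative expression (units per 1000000) of the 46 genes in each library, stacked by role. The 4 columns reach nearly the same height, and the syndecan block is smaller and the glypican block larger in both drug-loaded MNs libraries than in either HS library.

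The supply of precursors and the linker was described by UGDH and XYLT2. UGDH, which makes the UDP-glucuronic acid used in hyaluronan, heparan and chondroitin chains, stood at 43.5 and 40.1 units in HS against 64.0 and 48.7 units in the treated scars (log2 fold change 0.41, 95% interval -0.16 to 0.98, limma adjusted p 0.739). XYLT2, a xylosyltransferase that places the first sugar on the core protein, stood at 15.1 and 13.1 units in HS against 18.1 and 15.8 in the treated scars (log2 fold change 0.25). Both treated libraries were above both HS libraries in each gene, but for XYLT2 the nearest libraries differed by less than 1 unit. Under median ratio scaling XYLT2 overlapped. XYLT1, at 0.482 and 0.262 units in HS against 0.608 and 0.583 in the treated scars, was below the filter.

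All 4 tested chondroitin polymerase genes had a positive log2 fold change, between 0.16 and 0.32, as did 64.6% of all genes tested. CHSY1, a chondroitin synthase, stood at 20.3 and 16.5 units in HS against 21.1 and 25.4 in the treated scars, and CHPF2, a polymerizing cofactor, at 24.0 and 16.0 in HS against 24.7 and 24.2 in the treated scars. In these 2 genes the groups did not overlap, although HS replicate 1 lay next to the treated libraries. Under median ratio scaling both overlapped. CHPF stood at 13.2 and 8.77 units in HS against 12.2 and 12.3 in the treated scars. CSGALNACT1, which adds the sugar that commits the linker to chondroitin, stood at 12.1 and 4.42 units in HS against 11.9 and 7.30 in the treated scars. In both of these HS replicate 2 was lowest and the groups overlapped. The sign of CHPF and CSGALNACT1 depended on HS replicate 2, without which they were -0.11 and -0.34. The group median was 0.30, or 0.16 under median ratio scaling, where CHPF was 0.030. No member of this group had an unadjusted p under 0.05.

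Among the enzymes that sulfate chondroitin, CHST3 (a 6-O-sulfotransferase) stood at 14.6 and 10.8 units in HS against 13.2 and 10.1 in the treated scars. CHST11 (a 4-O-sulfotransferase) stood at 3.73 and 2.001 units in HS against 4.40 and 3.43 in the treated scars. CHST7 stood at 1.30 and 1.39 units in HS against 0.771 and 1.59 in the treated scars. The groups overlapped in these 3 genes, with log2 fold changes of -0.11, 0.38 and -0.13. Of the sulfotransferases that act on other sugar chains, CHST10, which makes the HNK-1 epitope of neural cells, stood at 12.7 and 6.24 units in HS against 13.2 and 14.5 in the treated scars. Its log2 fold change was 0.57 (limma adjusted p 0.743), or 0.12 without HS replicate 2. CHST2 overlapped at 8.25 and 3.14 units in HS against 6.97 and 6.38 in the treated scars, and CHST9 at 1.37 and 1.80 units in HS against 1.22 and 3.03 in the treated scars (log2 fold changes 0.31 and 0.22).

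The heparan sulfate polymerases did not share a direction. EXT1 and EXT2 form a complex that extends the chain. EXT1 (ENSOCUG00000015191) stood at 21.0 and 29.0 units in HS against 20.5 and 14.7 units in the treated scars (log2 fold change -0.48, 95% interval -1.16 to 0.20, limma adjusted p 0.740). EXT2 (ENSOCUG00000007361) stood at 37.4 and 33.2 units in HS against 45.7 and 38.0 units in the treated scars (log2 fold change 0.24, 95% interval -0.32 to 0.79, limma adjusted p 0.859). In both genes the groups were apart, but by less than 1 unit between the nearest libraries. Under median ratio scaling EXT2 overlapped. The ratio of EXT1 to EXT2 was 0.561 and 0.874 in HS against 0.449 and 0.388 in the treated scars. It was lower in each treated library than in either HS library. With EXT1 lower and EXT2 higher without overlap, that outcome was fixed by the levels given above. EXTL1, a related glycosyltransferase, stood at 71.0 and 42.9 units in HS against 47.7 and 34.9 in the treated scars, with overlap (log2 fold change -0.43). EXTL2 stood at 15.7 and 15.1 in HS against 22.0 and 16.8 in the treated scars, and EXTL3, which helps start heparan sulfate chains, at 5.90 and 11.1 in HS against 7.81 and 7.33 in the treated scars. The EXTL2 groups were apart (log2 fold change 0.30) but overlapped under median ratio scaling. EXTL3 showed the HS libraries on both sides of the treated ones (-0.093).

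Of the genes that modify heparan sulfate, NDST1, the N-deacetylase and N-sulfotransferase that acts first on the chain, stood at 41.1 and 42.98 units in HS against 39.5 and 43.4 in the treated scars (log2 fold change -0.021, 95% interval -0.55 to 0.50). HS6ST1, a 6-O-sulfotransferase, stood at 48.1 and 44.3 units in HS against 39.1 and 43.2 in the treated scars, slightly lower without overlap (log2 fold change -0.16, limma adjusted p 0.897). NDST3 stood at 2.54 and 3.63 units in HS against 2.61 and 5.06 in the treated scars, with overlap (log2 fold change 0.21).

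The 3-O-sulfotransferases add the rarest sulfate of the chain. HS3ST1, the member known for the antithrombin-binding site, stood at 47.8 and 25.7 units in HS against 26.5 and 18.5 in the treated scars (log2 fold change -0.64, 95% interval -1.45 to 0.18, limma adjusted p 0.709), and leaving out 1 library gave -1.07 to -0.20. HS3ST3B1 stood at 35.6 and 26.2 units in HS against 27.0 and 29.9 in the treated scars, also with overlap. HS3ST3A1 stood at 9.27 and 0.675 units in HS against 3.75 and 0.919 in the treated scars, high in replicate 1 and low in replicate 2 of both groups, and its interval from -2.35 to 1.44 was the widest of the 36. These last genes are close paralogs, and how reads shared by both were counted was not stated. HS3ST5 was low, at 1.52 and 1.03 units in HS against 2.10 and 2.27 in the treated scars, without overlap (log2 fold change 0.49). SULF1, an extracellular enzyme that removes 6-O-sulfate from finished heparan sulfate, stood at 7.11 and 8.86 units in HS against 12.2 and 11.2 in the treated scars (log2 fold change 0.50, 95% interval -0.13 to 1.14, limma adjusted p 0.709). Both treated libraries of SULF1 were above both HS libraries.

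**Figure D4:**
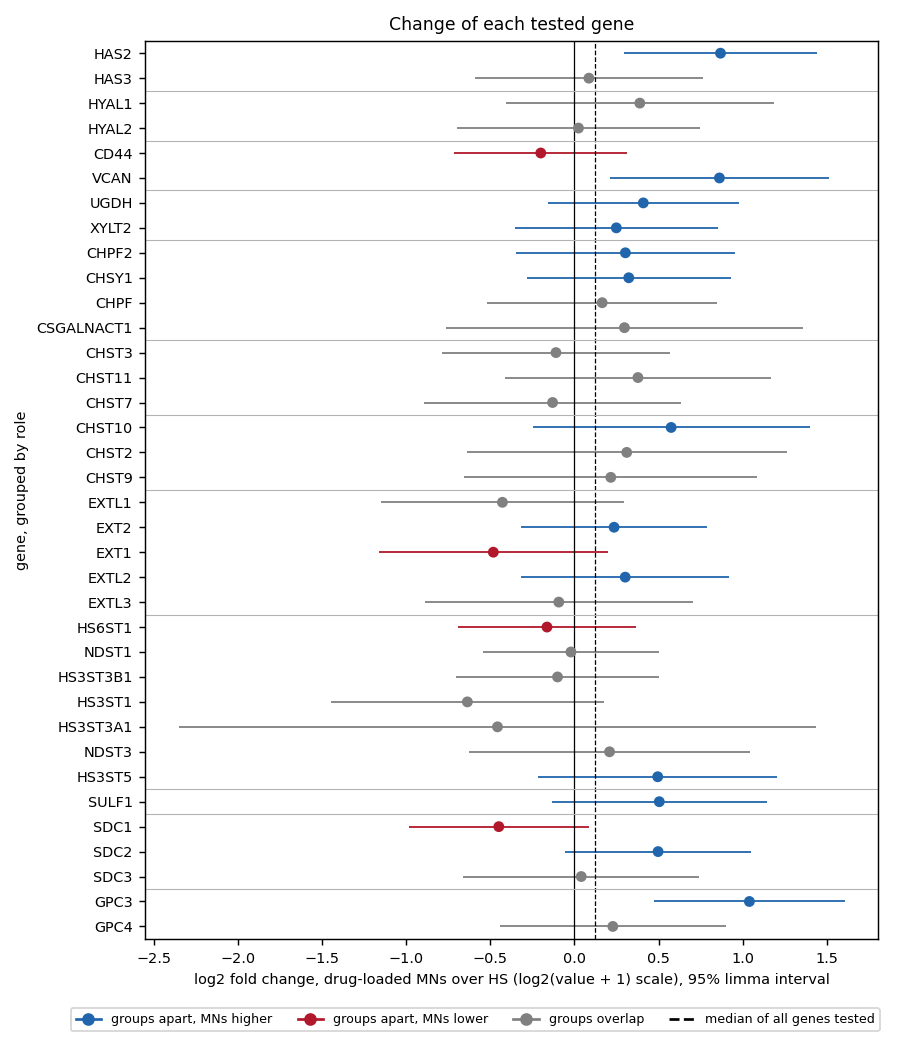
Log2 fold change of drug-loaded MNs over HS for the 36 tested genes (log2(value + 1) scale), grouped by role, with 95% limma intervals from 2 libraries per group. Blue marks genes with both treated libraries above both HS libraries, red the opposite and grey overlap; the dashed line is the median of all tested genes (0.12). The intervals of HAS2, VCAN and GPC3 lie above 0, and the other 33 intervals include 0.

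The libraries of the HS group differed more than those of the treated group. The median difference between HS replicates was 0.39 on the log2 scale over the 36 genes and 0.33 over all genes, against 0.23 and 0.23 in drug-loaded MNs. HS replicate 1 was above HS replicate 2 in 24 of the 36 genes, whereas over all tested genes it was above in 3764 of 9348. CHST2, HYAL2, CSGALNACT1 and HS3ST3A1 had the same order of libraries as the summed chondrocyte markers (388 and 97.6 units in HS against 233 and 150 in the treated scars), which is 11.1% of the 36 genes against 4.32% of all. That list had 3 of 6 markers in the table. COL9A1 stood at 273 and 6.53 units in HS against 127 and 83.3 in the treated scars, SOX9 at 113 and 90.7 against 105 and 65.8, and MATN1, below the filter, at 2.51 and 0.395 against 0.314 and 0.706. Of the 3, COL9A1 alone had the order of the sum. ACAN, COL2A1 and COMP were not analysed here. The part of cartilage in these 4 genes was not tested.

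Fibroblast markers separated the groups. All 5 tested markers (COL1A1, COL3A1, LUM, DCN and DPT) were higher without overlap (median log2 difference 1.34), and each had an unadjusted p under 0.05, but none passed the adjusted threshold. Their summed level was 9258 and 9580 units in HS against 22425 and 21968 in the treated scars, and none was at 0. In values per library, more cells of a type and more RNA per cell cannot be told apart. Relative to 1000 units of this sum, HAS2 was at 3.16 and 4.07 in HS against 2.87 and 2.76 in the treated scars, and SDC2 at 10.3 and 8.52 in HS against 6.36 and 4.98 in the treated scars. Both were lower in the treated libraries on this scale, whereas their plain levels were higher. SULF1 (0.768 and 0.925 against 0.543 and 0.510) and UGDH (4.70 and 4.19 against 2.85 and 2.22) were lower on it too. VCAN (11.7 and 7.08 against 6.39 and 7.81) and GPC3 (4.38 and 5.81 against 4.32 and 4.58) overlapped.

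The sum is led by COL3A1, so each of these genes was also set against each of the 5 markers by itself. HAS2 was lower relative to COL3A1, DPT and COL1A1 and overlapped relative to LUM and DCN. GPC3 was higher relative to LUM and overlapped relative to the other 4. VCAN was lower relative to COL3A1 and overlapped relative to the other 4. SDC2 was lower relative to 2 of the 5 markers, UGDH to 3 and SULF1 to 4, and they overlapped relative to the rest. No ratio to LUM was lower in the treated group for any of these 6 genes, so the outcome depended on the marker used, and these comparisons were chosen after the values were seen.

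**Figure D5:**
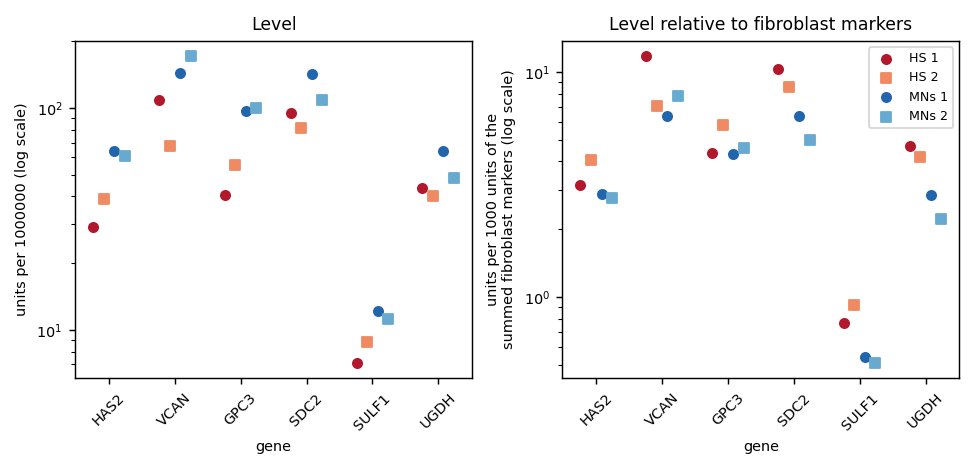
Left, level of 6 genes in each library (units per 1000000, log axis); right, the same values per 1000 units of the summed fibroblast markers COL1A1, COL3A1, LUM, DCN and DPT (log axis). Points are single libraries. Treated libraries (blue) are higher on the left for all 6 genes, and on the right they are lower for HAS2, SDC2, SULF1 and UGDH and overlap for VCAN and GPC3.

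Other marker lists gave the setting for SDC1 and CD44, which epidermal cells express. Of 6 basal keratinocyte markers 2 were higher and 4 lower, with summed levels of 8734 and 6282 units in HS against 8431 and 4525 in the treated scars. The suprabasal sum was 36817 and 52315 units in HS against 31363 and 41238 in the treated scars. Both sums overlapped between groups, and no tested marker of either list was at 0. Per 1000 units of the basal sum, SDC1 stood at 61.8 and 105 in HS against 48.3 and 104 in the treated scars, and CD44 at 29.8 and 51.2 in HS against 29.4 and 56.4 in the treated scars, so neither separated the groups. All 6 tested macrophage markers were higher in drug-loaded MNs without overlap, each at an unadjusted p under 0.05 and none past the adjusted threshold, with sums of 84.7 and 87.3 units in HS against 181 and 189 in the treated scars. The tested mural, Schwann cell and cycling markers all had positive log2 fold changes (median log2 differences 0.60, 0.62 and 0.59), but 2 of 5, 0 of 5 and 0 of 4 were apart between the groups, and the summed levels overlapped. Over the alternatives these medians ranged from 0.060 to 1.08, from -0.040 to 1.19 and from -0.20 to 1.56. Of all genes tested, 64.6% had a positive log2 fold change. The Schwann cell marker S100B stood at 410 and 17.0 units in HS against 204 and 98.5 in the treated scars. Its mean was lower in the treated group although its log2 fold change was 0.73. Mast cell markers had a median of 0.54 (-0.11 to 1.09), endothelial markers of 0.22 (-0.0043 to 0.52) and melanocyte markers of 0.08 (-0.71 to 0.62). The endothelial markers differed in direction: CDH5 and PECAM1 were higher without overlap and VWF was lower without overlap. The mast cell marker HDC was negative, at -0.49, with overlap. T cells were represented by 1 tested marker (1.08), and no erythroid marker was tested. The part of these cell types in the members' values was not tested.

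Other genes of the pathway were taken from a list of 61, of which 33 were tested. Of these 30 had a positive and 3 a negative log2 fold change, where 64.6% of all genes were positive, and the median was 0.29 against 0.12 over all genes. The positive ones include CEMIP2 (0.0055) and HAPLN1, both named after their values were seen. HAPLN1 stood at 162 and 6.21 units in HS against 93.0 and 52.9 in the treated scars, so its mean was lower in the treated group although its log2 fold change was 1.05. None passed an adjusted p of 0.05, 8 (24.2%, against 7.26% of all genes) were higher at an unadjusted p under 0.05, and 16 (48.5%, against 26.6%) were higher without overlap. Under median ratio scaling HSPG2, UXS1 and STAB1 lost this call (limma unadjusted p 0.124, 0.071 and 0.057). GFPT1, LYVE1, CD74, TGFBR3 and DCN kept it, and the pathway counts were not taken under that scaling. The list holds a fibroblast marker (DCN) and genes that macrophages express (CD74, STAB1 and LYVE1), and the marker lists of both cell types were higher in drug-loaded MNs. The part of these cell types in the pathway counts was not tested. By role, the positive ones were 3 of 3 tested linker genes, 6 of 7 genes of UDP-sugar supply, 4 of 5 of sulfate donor supply, 6 of 6 other hyaluronan genes, 4 of 4 degradation genes, 6 of 7 other core proteins and DSEL, an epimerase of dermatan sulfate.

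In the supply of UDP-sugars, GFPT1, the first enzyme of the hexosamine pathway that feeds hyaluronan, stood at 10.3 and 15.0 units in HS against 23.4 and 25.9 in the treated scars (log2 fold change 0.93, limma adjusted p 0.400). UXS1, which makes UDP-xylose for the linker, stood at 4.66 and 4.39 units in HS against 7.92 and 7.53 in the treated scars (log2 fold change 0.66, limma adjusted p 0.559). In both the treated libraries stood clear of HS and close to each other. The 5 tested genes of sulfate donor supply had a median of 0.19 on the log2 scale and none had an unadjusted p under 0.05. The 4 tested genes of lysosomal and secreted degradation had a median of 0.18, also with none.

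Among hyaluronan-binding proteins, LYVE1, the hyaluronan receptor of lymphatic vessels and some tissue macrophages, stood at 3.15 and 4.23 units in HS against 11.9 and 8.17 in the treated scars (log2 fold change 1.22, limma adjusted p 0.340). STAB1, a scavenger receptor, stood at 29.9 and 24.3 units in HS against 45.8 and 41.6 in the treated scars (log2 fold change 0.68, limma adjusted p 0.467). Both were higher in each treated library, as the macrophage markers were.

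Of the other core proteins, TGFBR3 (betaglycan, a co-receptor for TGF-beta that can carry heparan and chondroitin sulfate) stood at 72.0 and 81.4 units in HS against 121 and 125 in the treated scars (log2 fold change 0.67, limma adjusted p 0.417). HSPG2 (perlecan, the heparan sulfate proteoglycan of basement membranes) stood at 109 and 89.6 units in HS against 160 and 132 in the treated scars (log2 fold change 0.55, limma adjusted p 0.566), and DAG1, which encodes its receptor dystroglycan, overlapped at 84.0 and 101 units in HS against 118 and 99.3 in the treated scars. The HSPG2 groups were apart and the DAG1 groups were not. CD74, whose long form can carry chondroitin sulfate in antigen-presenting cells, stood at 131 and 176 units in HS against 252 and 269 in the treated scars. DCN (decorin), itself a fibroblast marker, stood at 1530 and 2385 units in HS against 3673 and 3475 in the treated scars, a difference of 0.90 on the log2 scale (limma adjusted p 0.417). BGN (biglycan) was not analysed here.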

How the data were processed

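Single-cell libraries of rabbit ear scar were made by the authors with the 10x Genomics 3′ v2 kit, and reads were processed with Cell Ranger 2.1.1 (version from the submitters' processing notes) and Seurat. Those notes name the genome build mm10, a mouse build, although the identifiers are rabbit Ensembl ones, so the build used is unclear and no coordinates are given. The deposited values are relative expression scores, 1 per gene and library, in a table named for FPKM. Each column summed to 10000, and neither a length correction nor the way cells were combined was stated. The authors describe a correction for technical bias between samples. Whether it touched these values was not stated, and if it did, it altered the differences given here. Filtering of cells was done by the authors, and how doublets were treated was not stated.

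Low values did not fall on whole multiples of the smallest one (18.6% to 21.7% of 885 to 1083 low values per library lay within 0.1 of one), so counts were not recovered and depth stayed unknown. Values were rescaled to 1000000 per library. A gene was kept if its mean reached 1 unit, and limma 3.58.1 (R 4.3.3) was run on log2(value + 1) through lmFit and eBayes with trend, without covariate, two-sided, with a threshold of 0.05. The fit was first tested on simulated data. With 2 libraries in each group the smallest two-sided p of an exact permutation test is 0.333, so none was run.

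The members, role groups, pathway list, marker lists and the rule that every tested member is named were chosen with earlier results of these data known. So were the ratios between members, for which no share over other gene pairs was taken. Pathway genes outside the members are named at an unadjusted p under 0.05, or at an absolute log2 fold change over 1 without overlap, or if they were HSPG2, DAG1, DCN or BGN. Of the 46 members, 43 matched 1 gene of the RefSeq list of the rabbit assembly mOryCun1.1, used only to find neighbours. Alternatives were median ratio scaling, pseudocounts of 0.1 and 5, no filter and a minimum mean of 5, eBayes without trend, the replicate number as a block, and leaving out each library.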

Additional observations from a re-analysis of the deposited data

How the results depend on the processing

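Over all genes tested, calls at the adjusted threshold (4) numbered 0 with median ratio scaling, a pseudocount of 5 and no filter, 1 without trend and 0 to 75 when a library was left out, and the cause was not tested. The replicate block gave 241, and 1 member, GPC3, passed (limma adjusted p 0.0176), as did DCN (0.0161) and LYVE1 (0.0451), whereas no member passed under the other 10 alternatives. The labels give no pairing, 2 pairs cannot establish one, and the differences between replicates of the groups correlated at 0.22 across genes. The members at an unadjusted p under 0.05 (3) were 5 of 45 without filter, where B3GAT2 and GPC5 joined (1048 of 12679 genes), 7 without HS replicate 1 (820 of 9377 genes), 5 without HS replicate 2 (1409 of 9363), 4 without drug-loaded MNs replicate 1 (507 of 9290) and 2 without drug-loaded MNs replicate 2 (794 of 9306), a range of 2 to 7, against 809 of 9348 genes with all libraries. Members without overlap (17) were 23 to 29 with 1 library left out, where fewer libraries have to be apart. The share over all genes rose too, to between 34.6% and 54.2% higher and between 18.1% and 29.9% lower. The median of the members ranged from 0.040 to 0.35 with 1 library left out.

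The signs of GPC3, HAS2, VCAN, SDC1, SDC2, CD44, EXT1 and EXT2 held under all 11 alternatives, with ranges of 0.81 to 1.26, 0.66 to 1.07, 0.53 to 1.20, -0.60 to -0.30, 0.31 to 0.69, -0.35 to -0.048, -0.71 to -0.26 and 0.094 to 0.37. HS3ST1, EXTL1, CHST11 and CHPF2 kept their sign with 1 library left out but came near 0 or moved widely (-1.07 to -0.20, -0.78 to -0.072, 0.049 to 0.70 and 0.024 to 0.58). Under median ratio scaling HAS3 was -0.016, HYAL2 -0.12 and SDC3 -0.074. With 1 library left out, ranges that crossed 0 were -0.11 to 0.44 for CHPF, -0.27 to 0.89 for CHST2, -0.31 to 0.089 for CHST3, -0.40 to 0.14 for CHST7, -0.22 to 0.65 for CHST9, -0.34 to 0.93 for CSGALNACT1, -0.50 to 0.31 for EXTL3, -0.074 to 0.53 for GPC4, -1.77 to 0.85 for HS3ST3A1, -0.32 to 0.11 for HS3ST3B1, -0.021 to 0.80 for HYAL1, -0.36 to 0.41 for HYAL2, -0.087 to 0.044 for NDST1, -0.16 to 0.58 for NDST3 and -0.16 to 0.24 for SDC3. Where a group kept 1 library, its spread was taken from the other group. The limit set by depth could not be measured, since the depth is not known.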
